A study of Mus musculus with 4 samples.

Results

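Glucose uptake and glycolysis were followed through 10 genes in mouse bone marrow cells with and without STAT5. The genes were chosen by symbol among the 31053 genes counted, and all 10 were present. In the order of the pathway they are Slc2a1, Hk2, Pfkl, Aldoa, Tpi1, Gapdh, Pgk1, Eno1, Pkm and Ldha. Single cells were captured in droplets (10x Chromium, 3′ ends of transcripts), with 1 library for each of 2 sorts in 2 genotypes. The KLS sort takes blood stem and progenitor cells, which lack lineage markers and carry c-Kit and Sca-1, here from 4 mice aged 8 to 12 weeks. The stromal sort, called MSC, took cells that carry Sca-1 and CD140a but lack CD45 and CD71 and have little or no Ter119, from mice aged 6 to 8 weeks. STAT5 knockout (STAT5 KO) mice are labelled Vav1-Cre/+STAT5abfl/fl and control mice Vav1-Cre/+STAT5ab+/+, so both carry the Cre transgene. Vav1-Cre is known to act in blood cells, so stromal cells of the knockout are not its main target and lie in a marrow whose blood cells lack STAT5.

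Glycolysis turns glucose into pyruvate in the cytosol. Slc2a1 encodes the glucose transporter GLUT1, and hexokinase (Hk2) traps the sugar by phosphorylation. Phosphofructokinase (Pfkl) commits it to the pathway, and aldolase (Aldoa) and triose phosphate isomerase (Tpi1) split it into triose phosphates. Gapdh, Pgk1 and enolase (Eno1) carry these onward, pyruvate kinase (Pkm) makes pyruvate with ATP, and lactate dehydrogenase (Ldha) turns pyruvate into lactate. The hypoxia-inducible factors HIF-1 and HIF-2 and the factor MYC are known regulators of these genes, and blood stem cells in marrow are known for a reliance on glycolysis.

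The genes lie on 6 chromosomes in GENCODE M21 (GRCm38). Slc2a1 is at chr4:119108711-119137983 and Eno1 at chr4:150236721-150248879, both on the plus strand. Chromosome 6 holds Hk2 (chr6:82725025-82774454), Tpi1 (chr6:124810586-124814296) and Gapdh (chr6:125161715-125166467), all on the minus strand. Ldha is at chr7:46841475-46855627 on the plus strand and Aldoa at chr7:126795234-126800751 on the minus strand. Pkm is at chr9:59656368-59679375 (plus), Pfkl at chr10:77986947-78010083 (minus) and Pgk1 at chrX:106187100-106203699 (plus).

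The bases before the start sites of Ldha, Hk2 and Pgk1 are shown because these genes follow 3 different patterns in the data. Ldha was highest in cells rich in S-phase transcripts and differed most between genotypes among the 10 in KLS cells. Over all depths Hk2 was highest in low-cycling KLS cells, and it was higher in stroma than in KLS. Pgk1 was high in S phase and, in control, the gene furthest below KLS in stroma. Each run is the 250 bases before a RefSeq start (GRCm38.p6), 5′ to 3′ on the gene's strand, and holds no GENCODE exon. Capitals mark ACGTG or GCGTG on either strand, the core bases of hypoxia response elements. The windows are chr7:46845554-46845803 (plus), chr6:82774455-82774704 (minus) and chrX:106186850-106187099 (plus).
Ldha: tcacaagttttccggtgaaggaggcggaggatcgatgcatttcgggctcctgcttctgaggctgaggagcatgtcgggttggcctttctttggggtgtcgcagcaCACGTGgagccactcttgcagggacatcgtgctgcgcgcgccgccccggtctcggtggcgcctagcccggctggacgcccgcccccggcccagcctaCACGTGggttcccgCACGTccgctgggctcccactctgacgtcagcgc
Hk2: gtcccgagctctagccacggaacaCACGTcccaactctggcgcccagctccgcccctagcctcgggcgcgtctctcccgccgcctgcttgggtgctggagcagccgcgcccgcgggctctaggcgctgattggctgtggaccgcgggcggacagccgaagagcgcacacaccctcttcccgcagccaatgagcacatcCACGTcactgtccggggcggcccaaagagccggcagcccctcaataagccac
Pgk1: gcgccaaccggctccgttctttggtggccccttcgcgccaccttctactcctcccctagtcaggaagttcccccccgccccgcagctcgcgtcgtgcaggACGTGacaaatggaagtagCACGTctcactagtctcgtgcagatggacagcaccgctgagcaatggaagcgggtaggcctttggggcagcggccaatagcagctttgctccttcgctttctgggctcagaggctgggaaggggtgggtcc
The Ldha window shown holds CACGTG at 2 places, the E-box that MYC and its partners bind, and each CACGTG contains ACGTG on both strands. The start after it lies 4329 bases inside the GENCODE gene. A second RefSeq start of Ldha has another exon-free window (chr7:46846832-46847081), not shown, with 1 core and no CACGTG. In RefSeq windows of 300 bases (250 before to 50 after a start), ACGTG or GCGTG was found for 9 of the 10 genes and for 46.7% of 27025 genes in the table. Tpi1 was the exception. CACGTG was found for Ldha alone among the 10 and for 8.09% of all genes. The STAT5 motif TTCNNNGAA was found in none of the 16 windows of the 10 genes and in 8.3% of all 32851 windows, which says only that these letters are not in those bases.

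After cells were filtered, 3085 KLS control cells and 6726 KLS STAT5 KO cells were kept, with median depths of 15136 and 10085 UMIs (unique molecular identifiers, 1 per captured transcript). The MSC libraries held 577 and 374 cells with medians of 2732 and 2496 UMIs. Libraries shared cell barcodes (393, 295, 229 and 200 in KLS control, KLS STAT5 KO, MSC control and MSC STAT5 KO), and a barcode was left out of the library where it held fewer UMIs. The targeted genes were low in the KLS knockout: Stat5a had 68.52 CPM (UMIs per 1000000 UMIs of the same cells) in control and 6.742 in knockout, and Stat5b 60.83 and 4.49. Stromal cells held Stat5a at 46.29 and 61.91 CPM. Ptprc, which encodes CD45, had 153.2 and 154.1 CPM in KLS and 0 UMIs in the stromal gates, and Pdgfra, which encodes CD140a, had 0 UMIs in KLS and 335.4 and 247.7 CPM in the stromal gates.

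With 1 library per group there was no replicate check and no test. Intervals in parentheses are 95% counting intervals, which cover counting error only, not differences between mice or preparations, and the words higher and lower describe these libraries. A gene was counted as different between genotypes past a ratio of 5 to 4, and between sorts or cell states past 2-fold. In summed single-cell profiles, fewer cells with a transcript and less transcript per cell cannot be told apart. A 3′ UMI is counted once per transcript whatever its length, so CPM can be set side by side between genes. Gapdh, Pgk1, Ldha, Aldoa and Eno1 have near-identical copies elsewhere in the genome, and how the counting shared reads among copies is uncertain.

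In KLS cells the 10 genes together made up 3628 CPM in control (3611 to 3644) and 3949 CPM in knockout (3935 to 3963). Gapdh alone held 41% of the control sum and ranked 110th of all genes by level. It was followed by Pkm at 495.1 CPM, Ldha at 445.2, Tpi1 at 308.7, Pgk1 at 291.1, Aldoa at 247.1 and Eno1 at 200.4. The genes of the entry steps were the lowest of the 10, with Pfkl at 92.18 CPM, Hk2 at 43.37 and Slc2a1 at 15.86. Other genes also serve these steps, such as Hk1 at 75.23 CPM and the transporter gene Slc2a3 at 29.88 CPM. The levels of the 10 genes thus spanned from 15.86 CPM for Slc2a1 to 1489 CPM for Gapdh, in the middle of the pathway. The knockout library had the same order of genes.

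**Figure D1:**
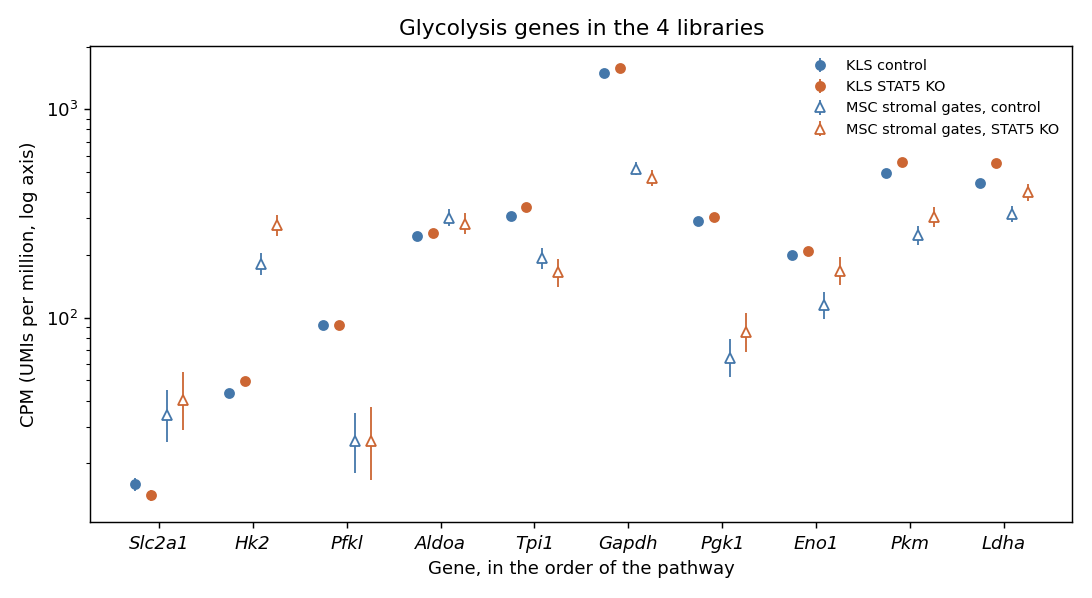
CPM on a log axis for each gene, in the order of the pathway, in KLS control, KLS STAT5 KO and the stromal gates of both MSC libraries. Points are single libraries and bars are 95% counting intervals. Hk2 and Slc2a1 lie higher in stroma than in KLS, and Gapdh, Pgk1 and Pfkl lie lower.

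The 10 genes differed between cycling states of KLS cells. Cells were called G2M-high when 20 G2/M genes summed to at least 4855 CPM, S-high when 20 S-phase genes otherwise summed to at least 4155 CPM, and low-cycling when the sums lay under 1435 and 2431 CPM. None of the 10 genes is on those lists. The limits are quantiles over both KLS libraries, and 115 control and 464 knockout cells lay within 10% of the G2/M limit and 271 and 785 within 10% of the S limit. Summed levels in control were 3234 CPM in 1186 low-cycling cells, 3884 in 532 intermediate cells, 4487 in 707 S-high cells and 3014 in 660 G2M-high cells. Knockout gave 3302, 4256, 4676 and 3393 CPM in the same order of states. In both libraries the sum was highest in S-high cells, 1.39-fold (control) and 1.42-fold (knockout) above low-cycling cells.

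The genes most above low-cycling cells were enzymes from Tpi1 onward. Tpi1 went from 219.3 CPM in low-cycling to 426.2 CPM in S-high control cells, 1.94-fold higher (1.86 to 2.04), and from 223.5 to 434.8 CPM in knockout, 1.95-fold higher. Ldha was 1.8-fold higher in control (355.9 to 641.6 CPM) and 1.74-fold higher in knockout (422.1 to 735.4 CPM). The same comparison gave 1.64-fold and 1.7-fold for Pgk1, which makes ATP from 1,3-bisphosphoglycerate, and 1.51-fold and 1.49-fold for Gapdh. Eno1 and Pkm were nearer to low-cycling cells, with log2 ratios of 0.30 and 0.32 in control. All of these genes were lower again in G2M-high than in S-high cells of both libraries. None of the 10 genes passed 2-fold in S-high against low-cycling cells in either library, where 6.8% (control) and 6.57% (knockout) of all genes tested lay past 2-fold higher and 9.77% and 10.5% past 2-fold lower.

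Aldoa did the opposite. It was 383.3 CPM in low-cycling, 283.4 in intermediate, 241.4 in S-high and 121.7 CPM in G2M-high control cells, and 372.1, 298.7, 277.5 and 157.8 CPM in knockout. G2M-high cells therefore held 3.15-fold less Aldoa than low-cycling cells in control (log2 ratio -1.66, -1.73 to -1.58) and 2.36-fold less in knockout (-1.24, -1.30 to -1.17). Aldoa was the 1 gene of 10 past 2-fold lower in each library, beside 8.47% of all genes in control and 10% in knockout, and 0 of 10 lay past 2-fold higher, beside 5.27% and 5.08%. Tpi1, which acts on the product of the aldolase step, was higher in the same G2M-high cells, by 1.23-fold and 1.32-fold.

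Over all depths Hk2 was, like Aldoa, lower in each later state. It was 58.33 CPM in low-cycling, 45.06 in intermediate, 40.83 in S-high and 32.84 CPM in G2M-high control cells. In knockout it was 66.16, 51.22, 48.78 and 42.46 CPM, so that low-cycling cells held the most Hk2 in both libraries. Slc2a1 was 19.44 CPM in low-cycling and 13.14 CPM in G2M-high control cells, and 15.49 and 11.62 CPM in knockout. Among control cells of 8000 to 16000 UMIs its direction was the other way. Pfkl followed neither pattern, at 101.6 CPM in low-cycling, 110.4 in S-high and 63.02 CPM in G2M-high control cells. In knockout Pfkl was 93.65, 117.8 and 68.98 CPM in the same states.

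**Figure D2:**
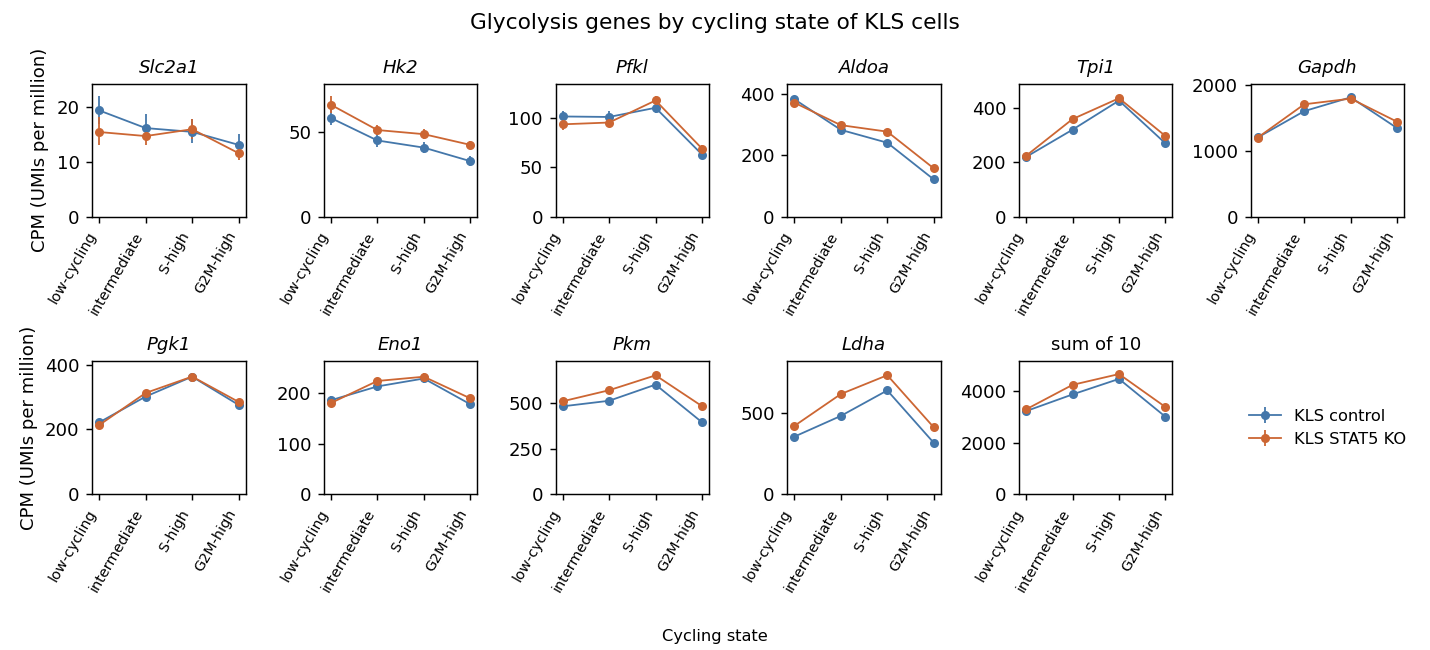
CPM (linear axis from 0) of each gene and of their sum in 4 cycling states of KLS cells, control in blue and STAT5 KO in orange, with 95% counting intervals and lines joining the states. Tpi1, Gapdh, Pgk1, Pkm and Ldha peak in S-high cells, while Aldoa and Hk2 are highest in low-cycling cells and lowest in G2M-high cells.

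Sequencing depth moved with the cycling state. Median depth was 8632.5 UMIs in low-cycling and 21138.5 UMIs in G2M-high control cells, and 6028 and 13617 UMIs in knockout. Among cells of 8000 to 16000 UMIs, chosen after the data were seen, S-high cells still held 1.28-fold more of the sum than low-cycling cells in both libraries, and Tpi1 was 1.86-fold and 1.65-fold higher. Depth was not equal inside this range. Medians were 9568 (low-cycling), 13790.5 (S-high) and 14559 UMIs (G2M-high) in control, and 9429.5, 11438 and 12495 UMIs in knockout. Aldoa in G2M-high cells of this range was 4.51-fold lower than in low-cycling cells in control and 3.25-fold lower in knockout. Hk2 in S-high control cells did not differ from low-cycling cells here (log2 ratio -0.003, -0.283 to 0.275), while in knockout it was lower (-0.557). In G2M-high cells Hk2 was lower in both libraries (-0.559 in control and -0.890 in knockout). Slc2a1 in G2M-high against low-cycling control cells had a log2 ratio of 0.76 (0.18 to 1.32) in this range, on 36 UMIs in 86 G2M-high cells, against -0.57 over all depths, and in knockout it was -0.70. Tpi1 in the same comparison was 0.15 (-0.03 to 0.33) in control and 0.03 (-0.09 to 0.15) in knockout, so its excess in G2M-high cells was not detectable at this depth. Gapdh changed its side, with a log2 ratio of G2M-high to low-cycling cells of -0.28 in control and -0.09 in knockout against 0.16 and 0.26 over all depths. The summed level of G2M-high against low-cycling cells likewise was -0.44 and -0.29 within this range, against -0.10 and 0.04 over all depths. In knockout its direction thus differed between this range and all depths.

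Lineage gates were set by fixed genes: lymphoid-primed (Dntt), megakaryocyte-primed (Pf4), erythroid-primed (Klf1 and Gata1) and myeloid (granule protein genes). Cells in no lineage gate were called stem triad with a UMI each of Hlf, Mecom and Procr, and multipotent otherwise. Cells that passed several lineage gates, 107 in control and 437 in knockout, were left out of the comparisons by gate. The sum was highest in the myeloid gate, at 4397 CPM in 227 control cells and 4712 CPM in 1193 knockout cells. It was lowest in the erythroid-primed gate, at 3237 and 3163 CPM, and the stem triad gate lay next above it at 3359 and 3463 CPM. Multipotent cells held 3703 and 3819 CPM and lymphoid-primed cells 3439 and 3668 CPM. Inside the gates too, S-high cells held the highest sum in 11 of the 12 pairs of gate and library, the exception being the 51 erythroid-primed control cells, where S-high cells held 3322 CPM and intermediate cells 3579 CPM.

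The stem triad gate, the cells with the transcripts of blood stem cells, held less Ldha, Pgk1, Tpi1 and Gapdh than multipotent cells in both libraries. Ldha was 355.2 CPM there against 459.4 CPM in multipotent control cells, and Pgk1 253.3 against 290.4 CPM. Tpi1 was 285.5 against 325 CPM in control and 287.3 against 338.9 CPM in knockout. Gapdh was 1347 against 1471 CPM and 1346 against 1477 CPM. Eno1 was at the same level in both gates of control (204.5 against 204.8 CPM). In knockout it was 183.6 (168.8 to 199.3) against 204.5 CPM (198.8 to 210.3). Pkm was 490.9 against 522.5 CPM in control and 554 against 554.7 CPM in knockout. Hk2 was 58.01 CPM there in control (51.96 to 64.57), above 47.59 in multipotent and 34.26 CPM in lymphoid-primed cells, and its interval overlapped that of myeloid cells (44.37 to 57.03). In knockout the stem triad (57.53 CPM), multipotent (56.25 CPM) and myeloid (59.11 CPM) gates did not differ in Hk2 beyond counting error. Of 384 control cells in the stem triad gate, 207 were low-cycling, so gate and cycling state overlap.

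Erythroid-primed progenitors held low levels of some isozymes and high levels of others. Pkm was 155.8 CPM there, against 490.9 CPM in the stem triad gate of control, 3.15-fold lower, and in knockout it was 147.3 against 554 CPM, 3.76-fold lower. Slc2a1 was 3.492 against 19.57 CPM in control and 3.788 against 16.16 CPM in knockout, on 5 and 9 UMIs in the erythroid-primed cells. Hk2 was 2.68-fold and 2.97-fold lower. These 3 genes of 10 lay past 2-fold lower in each library, beside 22% of all genes in control and 21.1% in knockout, and none lay past 2-fold higher, beside 5.46% and 5.62%.

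Ldha went the other way and was 678.2 CPM in erythroid-primed and 664.5 CPM in megakaryocyte-primed control cells, against 376 CPM in lymphoid-primed cells. In knockout it was 711.3, 769.5 and 446.4 CPM. Other isozymes were present at the steps where Hk2 and Pkm were low. Pklr, the pyruvate kinase of red cells and liver, was 57.27 CPM in control and 42.93 CPM in knockout erythroid-primed cells, 26.9% and 22.6% of pyruvate kinase UMIs, and had 0 UMIs in the control stem triad gate. Hk1 was 150.9 and 189.8 CPM against 85.37 and 102.8 CPM in the stem triad gate. In erythroid-primed cells Hk1 held the largest share, with 84.7% (79.7 to 88.9) of hexokinase UMIs in control and 88.4% (85.3 to 91.1) in knockout, against 49.1% and 54.9% in the stem triad gate. Hk3 held 45.9% and 36.3% of hexokinase UMIs in the myeloid gate, where Hk1 held 28.3% and 36.6%, and 3.14% and 2.55% in the erythroid-primed gate. Hk2 held 9.02% to 33.4% of hexokinase UMIs over the 6 gates of both libraries, less than Hk1 in each of them.

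**Figure D3:**
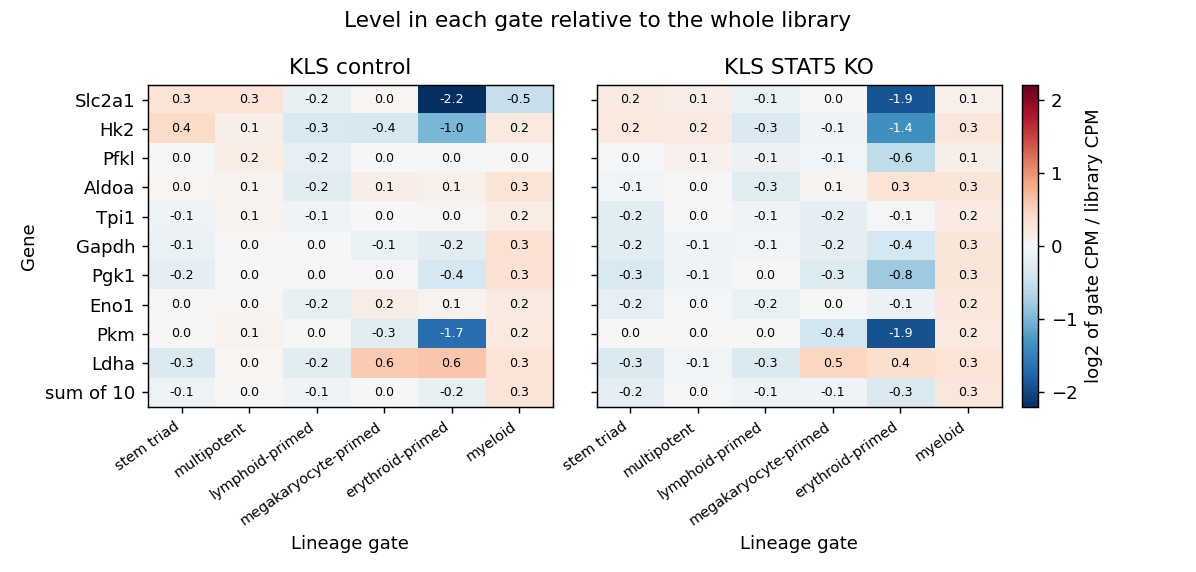
The log2 ratio of CPM in each lineage gate to CPM in the whole KLS library, for each gene and for their sum, in control (left) and STAT5 KO (right). Blue cells mark Pkm, Hk2 and Slc2a1 in the erythroid-primed gate, and red cells mark Ldha in the megakaryocyte-primed and erythroid-primed gates.

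In the KLS knockout library the 10 genes were close to the control library. Ldha differed most, at 445.2 CPM in control and 554.1 CPM in knockout, 1.24-fold higher (1.22 to 1.26). Hk2 was 43.37 and 49.48 CPM (1.14-fold), Pkm 495.1 and 556.5 CPM (1.12-fold) and Tpi1 308.7 and 339.9 CPM (1.1-fold). Gapdh (1489 and 1576 CPM), Pgk1 (291.1 and 303.7), Eno1 (200.4 and 209) and Aldoa (247.1 and 254.2) were within 1.06-fold of control. Pfkl was 92.18 and 92.04 CPM, and Slc2a1 was lower in knockout, at 15.86 and 14.1 CPM (log2 ratio -0.17, -0.30 to -0.04).

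None of the 10 genes lay past the 5:4 ratio in either direction. Over all 13976 genes tested, 10.1% lay past it higher and 17.4% past it lower. Ldha lay just under the ratio and just past it with TMM scaling (0.328) or as a mean of single-cell CPM (0.323), and at 8000 to 16000 UMIs Aldoa lay past it lower (-0.466 against 0.041). The median log2 ratio was 0.07 over the 10 genes and -0.02 over all genes. After each cell was thinned to 4000 UMIs, with 24 control and 289 knockout cells too shallow to enter, the median cell held 14 UMIs of the 10 genes in control and 15 in knockout.

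The cells of the knockout library were a different mixture. Low-cycling cells made up 38.4% of control and 21.9% of knockout cells, the stem triad gate 12.4% and 4.37%, and the myeloid gate 7.36% and 17.7%. The stem triad gate counts UMIs per cell, so depth can enter its share. With cells thinned to 4000 UMIs and lower limits for Dntt and Pf4, it held 91 of 3061 control and 84 of 6437 knockout cells. When knockout cells were weighted to the control's shares of lineage gate and cycling state, the log2 ratio of the sum went from 0.12 to 0.06 and that of Ldha from 0.32 to 0.23. Gapdh, Pgk1 and Eno1 then had ratios of -0.002, -0.031 and -0.006. The knockout cells also were shallower and held a smaller median share of mitochondrial UMIs, 2.91% against 4.44%, and the part of these differences in the results was not tested.

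Ldha was higher in knockout in each of the 6 lineage gates and each of the 4 cycling states. The log2 ratios were 0.32 in the stem triad gate, 0.22 in multipotent, 0.25 in lymphoid-primed, 0.21 in megakaryocyte-primed, 0.07 (-0.05 to 0.18) in erythroid-primed and 0.32 in myeloid cells. By cycling state they were 0.25 in low-cycling, 0.36 in intermediate, 0.20 in S-high and 0.38 in G2M-high cells. At 8000 to 16000 UMIs they were 0.34, 0.21, 0.34 and 0.36 in the same states. In the stem triad gate Ldha was the 1 gene of 10 past the 5:4 ratio higher and none was past it lower, beside 13.6% and 14.3% of all genes, and the log2 ratio of the sum was 0.04 (0.01 to 0.08). In the myeloid gate all 10 genes were higher in knockout, with Slc2a1 the 1 gene past the ratio (11.2 and 15.23 CPM, log2 ratio 0.44, 0.02 to 0.89) and none past it lower, beside 15.5% and 12.7%.

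Among the 4 cycling states, the sum differed most in G2M-high cells, at 3014 CPM in control and 3393 CPM in knockout (log2 ratio 0.17, 0.16 to 0.19). There Ldha, Aldoa and Hk2 lay past the 5:4 ratio higher in knockout, 3 of 10 beside 11.3% of all genes, and none past it lower, beside 13.7%. Aldoa was 121.7 and 157.8 CPM, a smaller distance from low-cycling cells in knockout than in control. Low-cycling cells differed by 0.03 in the sum. At 8000 to 16000 UMIs the sum differed by 0.14 in low-cycling, 0.08 in intermediate, 0.14 in S-high and 0.29 in G2M-high cells. The last value rests on 86 control cells. In those G2M-high cells Ldha (0.36), Aldoa (0.42) and Pkm (0.40) lay past the 5:4 ratio higher in knockout. Hk2 did not (0.22, -0.25 to 0.72), and Slc2a1, on 36 control UMIs, lay past it lower (-1.45, -1.99 to -0.87). The genes past the ratio thus differed between this range and all depths, and the share of all genes in this range was not computed. Median depth of these G2M-high cells was 14559 UMIs in control and 12495 UMIs in knockout, and the part of depth was not tested. Whether the difference between genotypes itself differs between states was not tested.

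**Figure D4:**
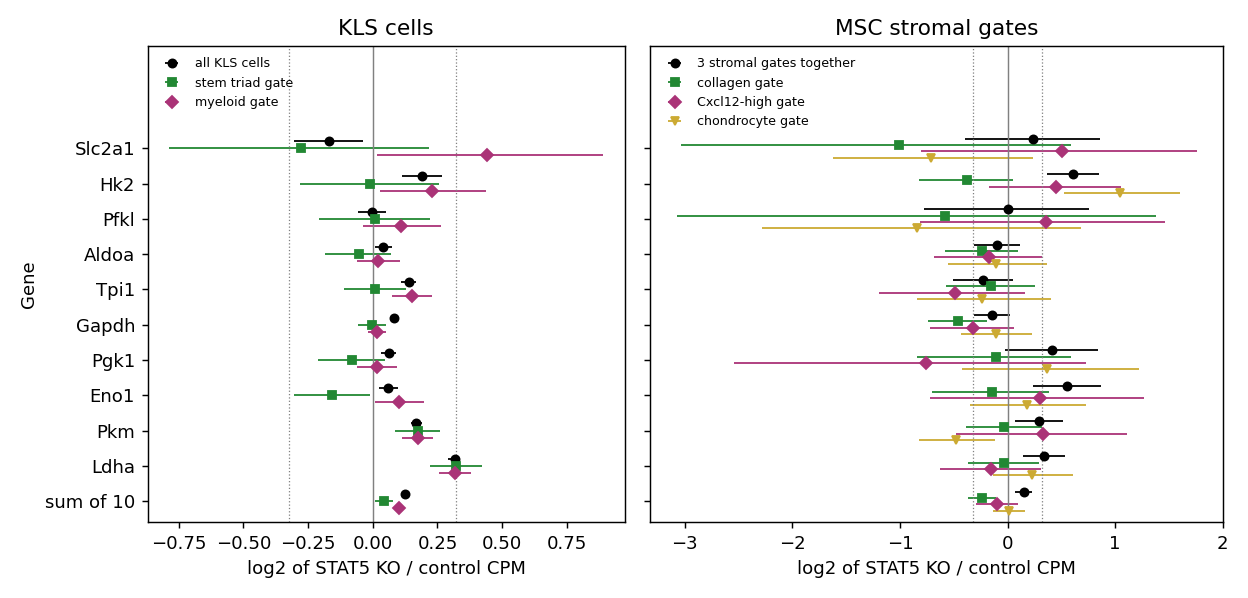
The log2 ratio of STAT5 KO to control CPM for each gene and for their sum, with 95% counting intervals, in KLS cells (left) and in the stromal gates of the MSC sort (right). Dotted lines mark the ratio of 5 to 4, and Ldha lies at or just under the line in all KLS cells, the stem triad gate and the myeloid gate, and in stroma the pooled gates and the collagen gate lie on opposite sides of 0 for the sum.

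Of 16 partner isozymes and other enzymes tested, 2 lay past the 5:4 ratio higher in knockout and 3 past it lower, shares near the 10.1% and 17.4% of all genes. Ldhb, the lactate dehydrogenase subunit that favours lactate use, was 56.14 CPM in control and 33.63 CPM in knockout KLS cells, 1.67-fold lower, and held 11.2% (10.8 to 11.6) and 5.72% (5.51 to 5.94) of lactate dehydrogenase UMIs. It was highest in the stem triad gate, at 93.33 and 67.55 CPM, and lowest in the erythroid-primed gate, at 16.76 and 5.471 CPM. Inside the stem triad gate its share was 20.8% in control and 13.2% in knockout. Aldoc, the second aldolase, was 9.484 and 3.849 CPM, 2.46-fold lower, and Eno3, the muscle enolase, was 4.634 and 7.174 CPM, 1.55-fold higher. Weighting to the control's mixture left Ldhb at a log2 ratio of -0.46 and Aldoc at -0.92, from -0.74 and -1.30.

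A wider set of 69 genes in 6 lists was examined around the 10, beside the same 10.1% and 17.4% of all genes. Of 12 genes tested for lactate and pyruvate handling, Slc16a1, which encodes the lactate transporter MCT1, lay past the 5:4 ratio higher (28.51 and 43.85 CPM) and Pdk2, a kinase that holds back pyruvate dehydrogenase, past it lower (11.89 and 7.527 CPM). Of 6 regulators of flux, Tigar, whose product lowers fructose 2,6-bisphosphate, was 1.44-fold higher, and Pfkfb1, Pfkfb2 and Fbp1 were 1.4-fold, 1.27-fold and 1.35-fold lower, all at 10.03 CPM or less. Of 18 genes of the HIF axis tested, Ddit4 (16.48 and 10.39 CPM), Bnip3 (21.37 and 15.75) and Car9 (11.32 and 8.404) lay past it lower, and 2 past it higher, of which Ankrd37 (2.972 and 3.823 CPM) had at least 100 UMIs. None of 7 genes of the pentose phosphate branch passed it. Mycn was 51.74 and 40.24 CPM, and its log2 ratio of -0.36 became 0.27 when knockout cells were weighted to the control's mixture.

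Across 29 groups of at least 50 KLS cells (library by gate by cycling state), the 10 genes did not vary as 1 block. Pearson's r of log2 levels between a gene and the sum of the other 9 was 0.89 for Eno1 and Pkm, 0.84 for Ldha, 0.82 for Gapdh, 0.81 for Tpi1, 0.80 for Pgk1 and 0.71 for Pfkl. It was 0.25 for Aldoa, 0.08 for Hk2 and -0.05 for Slc2a1. Hk2 and Slc2a1 are the lowest of the 10, with Slc2a1 at 10.86 to 22.67 CPM over the groups. The part of counting error in their r was not tested. For the other genes, r with the sum of the 10 had a median of -0.16, with a 5th to 95th percentile range of -0.76 to 0.77, which holds the value of Pfkl. Of 10144 genes compared with the sum of the 10, the most similar were Srm (0.97), Nop10 (0.96), Nip7 (0.95), Gart (0.95) and Rrs1 (0.95). Srm encodes spermidine synthase, Gart an enzyme of purine synthesis, and Nop10, Nip7 and Rrs1 proteins of ribosome assembly. The groups share 2 libraries and cells of one library share depth, so these values describe the pattern only.

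Stromal cells held the 10 genes in other proportions. The stromal gates, which are Cxcl12-high cells, cells rich in collagen I, collagen III, Dcn and Lum, and chondrocyte-like cells by cartilage matrix genes, held 1998 CPM of the 10 genes in control (1927 to 2071) and 2218 CPM in knockout (2128 to 2312), against 3628 and 3949 CPM in KLS. Of the 10 genes, Slc2a1 and Hk2 went the other way, and Aldoa did so by less than 2-fold. The other hexokinases did not, with Hk1 at 30.86 CPM in control stroma against 75.23 in control KLS, and Hk3 at 0 against 32.85 CPM. Among other transporters, Slc2a3 was 28.85 against 29.88 CPM and Slc2a8 14.09 against 5.221 CPM. Hk2 was 181.8 CPM in control stroma and 43.37 CPM in control KLS, 4.19-fold higher (3.68 to 4.76), and 277.1 against 49.48 CPM in knockout, 5.6-fold higher. Slc2a1 was 34.21 against 15.86 CPM (2.16-fold, 1.59 to 2.86) in control and 40.29 against 14.1 CPM in knockout (2.86-fold). Slc2a1 was uneven among the stromal gates, at 37.63 CPM in Cxcl12-high, 19.53 (11.57 to 30.86) in collagen and 105.7 CPM in chondrocyte-like control cells, and 53.54, 9.698 and 64.55 CPM in knockout, so the collagen gate, the largest, did not differ from KLS beyond counting error. Hk2 was above KLS in each of the 3 gates of both libraries, at 145.5 CPM or more.

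The other enzymes except Aldoa were lower in stroma. Pgk1 was 64.4 against 291.1 CPM, 4.52-fold lower, Gapdh 517.9 against 1489 CPM, 2.87-fold lower, and Pfkl 25.49 against 92.18 CPM, 3.62-fold lower. Pkm (248.2 CPM), Eno1 (114.7 CPM), Tpi1 (193.2 CPM) and Ldha (315.3 CPM) were lower by 1.99-fold, 1.75-fold, 1.6-fold and 1.41-fold. Aldoa was the closest to KLS, at 302.5 against 247.1 CPM. In control 2 of 10 genes lay past 2-fold higher and 3 past 2-fold lower, beside 24.8% and 32.7% of all genes. In knockout the same 2 lay past it higher and 4 past it lower, with Tpi1 added to the same 3, beside 24.7% and 36.9%.

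The hexokinase and phosphofructokinase isozymes differed between the sorts. Hk2 held 28.6% (27.6 to 29.7) of hexokinase UMIs in control KLS and 85.5% (81.1 to 89.2) in control stroma, and 28.5% and 87% in knockout. Hk3 had 1680 UMIs in control KLS and 0 of 317 hexokinase UMIs in control stroma, which allows a share of up to 1.16% (Clopper-Pearson). Pfkl held 66.4% of phosphofructokinase UMIs in control KLS and 25.7% (18.9 to 33.5) in control stroma, where Pfkp, the platelet isozyme, held 60.1% (51.8 to 68.1). In Cxcl12-high control cells Pfkl instead held 52.6% (35.8 to 69.0) and Pfkp 36.8%, on 38 UMIs, while Pfkp held 71.8% (61.0 to 81.0) in collagen cells. Of the glucose transporters counted, Slc2a3 (GLUT3) led in control KLS with 57.7%. The control stromal gates had different leaders on few UMIs: Slc2a3 with 69.2% of 52 UMIs in Cxcl12-high cells, Slc2a1 with 85.7% of 21 UMIs in chondrocyte-like cells, and Slc2a8 (45.2%) and Slc2a1 (42.9%) within counting error of each other in collagen cells.

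**Figure D5:**
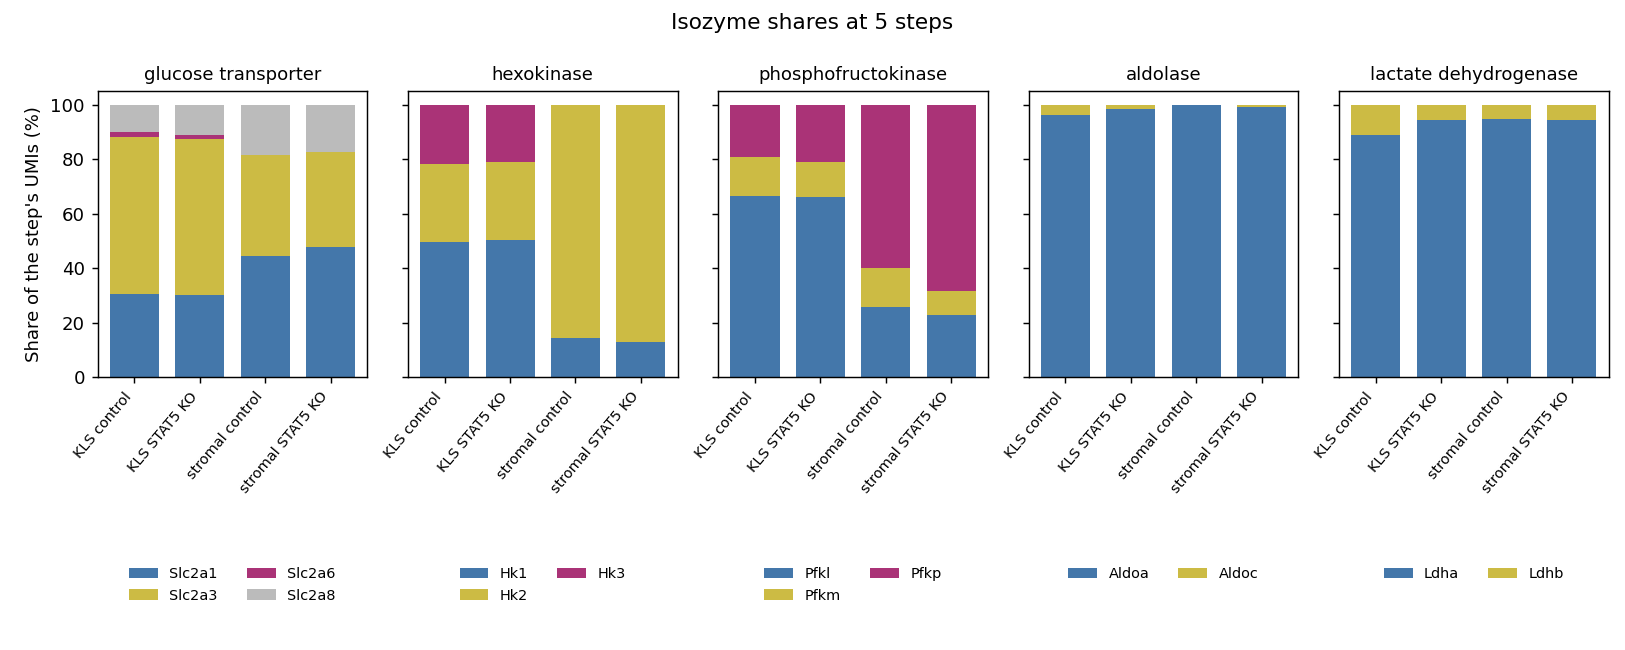
Shares (%) of the UMIs of 5 steps that fall to each isozyme or transporter, in KLS cells and in the stromal gates of both genotypes. Hk2 goes from 28.6% of hexokinase UMIs in control KLS to 85.5% in control stroma, and Ldhb from 11.2% of lactate dehydrogenase UMIs in control KLS to 5.72% in STAT5 KO KLS.

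Other genes of the lists set stroma apart in the same comparison. Of 19 genes of the HIF axis, 10 lay past 2-fold higher in control stroma and 3 past 2-fold lower, beside 24.8% and 32.7% of all genes, with a median log2 ratio of 1.13 against -0.30 over all genes. Among those higher were Epas1, which encodes HIF-2α, at 265.6 against 0.2347 CPM, Vegfa at 275.7 against 6.121 CPM, and P4ha1 at 148.3 against 18.85 CPM. The median of the 10 glycolysis genes was -0.74, on the other side of 0 from the HIF axis list. Of 7 genes of the pentose phosphate branch 4 lay past 2-fold lower, beside the same 32.7%, led by Tkt, a transketolase, at 71.11 against 569 CPM. Gpi1 (97.94 against 393.7 CPM) and Pgam1 (111.4 against 285.9 CPM), the remaining 2 enzymes of the main line, were lower too.

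Within the stromal gates, chondrocyte-like cells held the most glycolysis transcripts, with a sum of 3025 CPM in 33 control cells and 3058 CPM in 56 knockout cells. Cxcl12-high cells held 1783 and 1665 CPM (101 and 52 cells), and collagen cells 1901 and 1617 CPM (255 and 134 cells). Pkm was 628.5 CPM in chondrocyte-like, 243 in collagen and 97.83 CPM in Cxcl12-high control cells, and 451.9, 237.6 and 123.1 CPM in knockout. Eno1 was 240.8, 112.8 and 65.22 CPM in the same control gates. Cells of the MSC libraries with an erythroid profile held almost none: 1 UMI of the 10 genes in 113 control cells (9.462 CPM) and 5 UMIs in 89 knockout cells (72.38 CPM), at a median of 648 and 633 UMIs per cell.

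Between genotypes, the stromal sum was higher in knockout by a log2 ratio of 0.15 (0.07 to 0.23), and this was not seen inside the gates. Hk2 (181.8 and 277.1 CPM), Eno1 (114.7 and 168.1), Pgk1 (64.4 and 85.5) and Ldha (315.3 and 399) lay past the 5:4 ratio higher, 4 of 10 beside 17.1% of all genes, and none lay past it lower, beside 33.4%. The interval of Pgk1 held 0 (-0.03 to 0.84). Chondrocyte-like cells, which hold the most of these transcripts, were 5.72% (3.97 to 7.94) of kept MSC control cells and 15% (11.5 to 19.0) of knockout cells. With knockout cells weighted to the control's shares of the 3 gates, the log2 ratio of the sum was -0.08, Ldha was 0.07, Eno1 0.14, Pgk1 0.02 and Hk2 0.23.

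By gate, the sum was lower in knockout in collagen cells (-0.23, -0.36 to -0.10) and lay at -0.10 (-0.30 to 0.10) in Cxcl12-high and 0.02 (-0.13 to 0.17) in chondrocyte-like cells. All 10 genes were lower in knockout collagen cells, 4 of them past the 5:4 ratio (Slc2a1, Hk2, Pfkl and Gapdh) beside 27.1% of all genes, and none past it higher, beside 22%. Pfkl had 10 and 3 UMIs there, below the minimum of 20 that genes of the background had to reach. Gapdh, at 496.9 and 361.2 CPM, was the 1 gene of the 10 whose interval did not hold 0 (-0.74 to -0.19). In Cxcl12-high cells 4 genes lay past the 5:4 ratio higher and 3 past it lower, beside 25.2% and 28.8%, each with an interval that held 0. In chondrocyte-like cells 2 lay past it higher and 3 lower, beside 29.3% and 34.1%, with Pfkl, on 8 and 11 UMIs, again below that minimum.

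Hk2 in chondrocyte-like cells was, of the 10 genes in the 3 gates, the one furthest from control in log2 ratio, at 211.4 CPM in control (36 UMIs) and 437.5 CPM in knockout (183 UMIs), 2.07-fold higher (1.44 to 3.05). It was seen in 18.2% of the 33 control cells and 46.4% of the 56 knockout cells, so few cells carry the control value. Pkm in the same cells was 1.39-fold lower, at 628.5 and 451.9 CPM. In the pooled stromal gates Hif1a, which encodes HIF-1α, was 87.88 and 157.2 CPM, 1.79-fold higher in knockout, and its log2 ratio of 0.84 was 0.41 after weighting. Hemoglobin transcripts moved the other way in these gates, with Hbb-bs at 1539 CPM in control and 59.95 CPM in knockout. With mitochondrial, ribosomal protein and hemoglobin genes left out of the CPM total, the log2 ratio of the stromal sum was 0.169 against 0.151. Any other part of hemoglobin transcripts in the result was not tested. The stromal gates of knockout held 242 cells and those of control 389 cells.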

How the data were processed

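The deposited counts are UMIs per gene and cell barcode. Per the submitters' processing notes the authors used Cell Ranger with GRCm38 (mm10), and per the file headers the software version was 3.1.0. No deposited cell annotation was used. Cells were kept from 200 genes up, if mitochondrial UMIs made up 10% or less. Barcodes holding more UMIs in another library were left out (388, 281, 33 and 17 in KLS control, KLS STAT5 KO, MSC control and MSC STAT5 KO). Scrublet's own limit marked at most 1 barcode per library, so the highest scores were left out at 0.8% per 1000 barcodes (112, 451, 4 and 1). UMIs were summed over cells and scaled to CPM over all genes. Intervals at 95% are exact Poisson (levels), conditional binomial (ratios) and Clopper-Pearson (shares), and cover counting error only, since each group is 1 library.

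KLS gates needed 3 UMIs of Dntt or Pf4, 1 UMI each of Klf1 and Gata1, 2000 CPM of Mpo, Elane, Prtn3 and Ctsg, or 1 UMI each of Hlf, Mecom and Procr. The last, the stem triad gate, took only cells that passed no lineage gate, and cells that passed several lineage gates were kept apart. MSC gates needed 10000 CPM of their genes, and 13 of the 14 genes of the erythroid gate were found. Genes needed 20 UMIs over both sides of a comparison to enter the background. All 10 glycolysis genes are named. List genes are named past the ratio limit with at least 100 UMIs, and the 5 genes of highest r on log2(CPM + 1) are named as most similar. The genes and lists were chosen with earlier results of these data known. The ratios and intervals were run on simulated counts with 2-fold changes. Those counts held counting error only, not differences between mice or preparations. Tools were Python 3.11.15, numpy 2.4.6, scipy 1.17.1, scanpy 1.11.5 and edgeR 4.0.16 for the TMM alternative. Alternatives covered filters, doublets, scaling, weighting, gate and cycling limits, and depth.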

Additional observations from a re-analysis of the deposited data

How the results depend on the processing

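No paired analysis was possible because each group has 1 library. Values are log2 ratios, and where one differs from that reported the cause was not tested. The ratio of STAT5 KO to control KLS cells for the summed genes (0.123) was 0.107 with a stricter cell filter, 0.087 without mitochondrial, ribosomal protein and hemoglobin genes, 0.135 with TMM factors and 0.059 when weighted to control shares. In the stem triad gate (0.044) it was 0.089 when gates were set on thinned cells. In stroma (0.151) it was 0.279 with TMM factors and -0.084 when weighted. Stroma against KLS in control (-0.861) was -1.246 without the named gene classes, -0.764 with TMM, -0.936 as a mean of single-cell CPM and -0.943 over all kept MSC cells. The summed ratio of G2M-high to low-cycling cells changed direction with some settings. In control (-0.102) it was -0.144 with the stricter filter, -0.072 with barcodes larger elsewhere kept, -0.200 without the named classes, -0.018 with TMM, -0.131 as a mean of single-cell CPM, 0.026 with wider cycling classes (limits at tertiles) and -0.442 at 8000 to 16000 UMIs, a range chosen after seeing the data. In knockout (0.039) the same settings gave 0.013, 0.084, -0.061 and 0.133 with TMM, then 0.189 with tertiles and -0.293 at that depth. The 0 of 10 KLS genes past the ratio higher became 1 with TMM and 1 as a mean of single-cell CPM, and the 0 past it lower became 1 at that depth.

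Of 899 alternative values of single genes, 727 stayed within their counting interval and 154 lay outside it. The remaining 18 changed direction, which was counted only where the counting interval of the reported value did not hold 0. Between KLS genotypes these were Aldoa at -0.058 as a mean of single-cell CPM, Gapdh at -0.002, Pgk1 at -0.031, Eno1 at -0.006 and Mycn at 0.267 when weighted, and Hk2 at -0.003, Aldoa at -0.466 and Pfkfb1 at 0.171 at 8000 to 16000 UMIs, where low-cycling cells were 50.7% of control and 8.19% of knockout cells. Between stromal genotypes they were Adm at 0.058 as a mean of single-cell CPM, and Pkm at -0.015, Epas1 at 0.040 and Txnip at 0.016 when weighted. Aldoa in control stroma against KLS was -0.093 without the named classes. For G2M-high against low-cycling cells they included Pkm in knockout at 0.016 with TMM. The others, at 8000 to 16000 UMIs, were Slc2a1 at 0.764, Gapdh at -0.277 and Pgk1 at -0.036 in control and Gapdh at -0.085 in knockout. Genes with few UMIs, such as Slc2a1 and Pfkl in stroma, are limited by depth.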
